A study of Mus musculus with 11 samples.

Results

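The immediate early genes described here are 10 genes, Fos, Fosb, Jun, Junb, Egr1, Ier2, Ier3, Dusp1, Ccn1 and Ccn2, taken by their platform gene symbols. The rule for them used no measured value. Earlier results of these data were known when they were chosen, among them those of Ier3 and Ccn1. The 10 genes were measured by 14 probe sets among the 34945 that carry 1 gene symbol, and the array tested 18193 genes in all. Each gene was read from the brightest of its probe sets, judged by the mean of 11 arrays, and the other 4 probe sets, of Jun and Ccn1, are given beside it.

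Mouse RNA was profiled on Affymetrix mouse expression arrays, and every sample shared a mixed background of the strains C57/Bl and BlackSwiss. There were 3 arrays of embryonic stem cells matched in genotype (ESC), 3 of induced pluripotent cells made from ventricular myocytes (ViPSC) and 3 of induced pluripotent cells made from fibroblasts of the tail tip (TiPSC), all labelled undifferentiated. The source cells had 1 array each: ventricular cardiomyocytes (VM) and tail tip fibroblasts (TTF), both of postnatal day 1. All pluripotent cultures grew on irradiated embryonic fibroblast feeders with serum and LIF, the cytokine that keeps mouse stem cells undifferentiated, and none received a stimulus or drug according to the labels. Before RNA was taken they were treated with trypsin for 5 minutes, dispersed and left on uncoated dishes for 45 minutes so that feeders would attach, and the cells still in suspension were collected. The number of induced lines, and whether the replicates were separate cultures, are not given in the sources used here, so p-values measure only the spread between these samples.

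Immediate early genes are transcribed within minutes of a stimulus such as serum, a growth factor, stretch or handling, and they need no new protein synthesis for it. Their promoters are held ready by factors already in the cell, mainly the serum response factor with its ternary complex partners and CREB, which kinases of the ERK, p38 and JNK pathways and protein kinase A activate. Many of the products are transcription factors, and others, such as the phosphatase DUSP1, end the same signal. Transcripts of immediate early genes last only a short time. In heart muscle they are known for their response to load and to catecholamines, and in fibroblasts for their response to serum and wounding.

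Of the 10 genes, 7 had an entry in the RefSeq promoter table (build GRCm38.p6), and Egr1, Ier2 and Ccn2 were not in it. The 5 stretches shown are those of the members that held TGACG, a short site through which such genes are known to be switched on. Capitals mark TGACG, the core of the cyclic AMP response element (CGTCA where it lies on the opposite strand), and TATAAA. Each stretch runs to the base before the start that the table uses, on the gene's own strand: Fos at chr12:85473770-85473889 (plus), Fosb at chr7:19310046-19310165 (minus), Junb at chr8:84978749-84978868 (minus), Ccn1 at chr3:145649986-145650105 (minus) and Dusp1 at chr17:26508473-26508672 (minus). For Fosb that start lies inside the gene span given further on, which reaches beyond it on the 5′ side, so the Fosb TGACG lies within that span and not before it.
Fos: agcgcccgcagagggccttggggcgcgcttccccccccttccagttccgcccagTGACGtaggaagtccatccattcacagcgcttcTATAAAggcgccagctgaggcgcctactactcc
Fosb: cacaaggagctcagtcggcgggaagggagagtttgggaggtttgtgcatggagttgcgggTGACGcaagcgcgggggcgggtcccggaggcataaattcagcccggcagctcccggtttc
Junb: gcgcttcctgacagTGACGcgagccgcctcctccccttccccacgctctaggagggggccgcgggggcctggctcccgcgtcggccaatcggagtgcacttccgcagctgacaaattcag
Ccn1: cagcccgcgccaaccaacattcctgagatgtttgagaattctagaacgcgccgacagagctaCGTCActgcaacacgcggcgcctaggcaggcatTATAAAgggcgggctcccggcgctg
Dusp1: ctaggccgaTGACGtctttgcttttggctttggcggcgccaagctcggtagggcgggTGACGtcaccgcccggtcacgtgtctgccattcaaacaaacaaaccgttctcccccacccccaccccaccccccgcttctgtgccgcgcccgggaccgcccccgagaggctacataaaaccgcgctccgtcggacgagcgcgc

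In the 250 bases before the table's start, searched on both strands, TGACG was present in 5 of the 7 members, Fos, Fosb, Junb, Dusp1 and Ccn1, and in 17.8% of all 32851 promoter windows. The full element TGACGTCA, which contains TGACG, was present in Dusp1, starting 143 bases before the gene, and in 1.55% of all windows. The Fos stretch carries TATAAA 33 bases and TGACG 66 bases before the start, and the Ccn1 stretch carries TATAAA 25 bases before it. TATAAA was found in 12.4% of all windows. The AP-1 site TGANTCA, present in 6.75% of all windows, and the CArG box bound by the serum response factor, present in 1.47%, had no match in these 7 windows. A match is only a match of letters, and a missing one says only that those letters are not in this window.

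The labelled cell types were checked against their markers. The summed level of 8 pluripotency markers was between 15.66 and 15.95 (log2) on the 9 pluripotent arrays, 8.07 in VM and 7.43 in TTF, and that of 10 cardiac muscle markers was 17.35 in VM and between 7.56 and 7.96 elsewhere. The VM array also carried endothelial markers (summed level 13.43, against 8.17 in TTF) and fibroblast markers (15.202, against 17.36 in TTF), so it was not cardiomyocytes alone. Summed fibroblast and feeder markers were between 13.19 and 13.28 in ViPSC, between 13.003 and 13.44 in TiPSC and between 12.95 and 13.24 in ESC. In such bulk samples, fewer cells of a type and less RNA per cell cannot be told apart. The ESC group had the arrays least like one another: over all genes ESC 1 correlated at 0.9884 with ESC 2 and 0.9836 with ESC 3, against 0.993 between ESC 2 and ESC 3. ESC 1 was closer to every induced array, at 0.9934 to 0.9938 with TiPSC and 0.9926 to 0.9927 with ViPSC. Its nearness to the induced cells is therefore a trait over all genes, not one particular to the 10 genes.

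The AP-1 genes are described first. FOS and FOSB pair with JUN or JUNB to form AP-1, a transcription factor dimer that binds the TGANTCA site. Fos (probe set 1423100_at, chr12:85473890-85477274 on GRCm38.p6) was at 11.92, 11.84 and 11.76 in ViPSC, 12.15, 12.11 and 11.87 in TiPSC, 12.12, 10.72 and 10.93 in ESC, 12.78 in VM and 9.24 in TTF, all in log2 RMA units. The VM array was the highest and the TTF array the lowest, and among the pluripotent arrays ESC 2 and ESC 3 lay below the other 7, which formed 1 narrow band that included ESC 1. ViPSC averaged 11.84 ± 0.08 (SD, n = 3), TiPSC 12.04 ± 0.15 and ESC 11.26 ± 0.76. No pair of these groups differed for Fos after adjustment over all genes (limma): ViPSC minus TiPSC was -0.20 ± 0.30 (SE, adjusted p = 0.779), ViPSC minus ESC 0.58 ± 0.30 (adjusted p = 0.363) and TiPSC minus ESC 0.78 ± 0.30 (adjusted p = 0.218). Here and below the SE rests on 1 spread shared by the 9 pluripotent arrays. The wide ESC spread therefore also enters the SE of ViPSC minus TiPSC.

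Fosb (1422134_at, chr7:19302696-19310118) had the same layout of arrays. It was at 6.996, 7.17 and 7.05 in ViPSC, 7.22, 7.12 and 7.47 in TiPSC, 7.28, 6.01 and 6.33 in ESC, 8.29 in VM and 4.54 in TTF. ESC 1 again lay among the induced cells, ESC 2 and ESC 3 lay below all 6 of their arrays, and TTF lay below every other array. TiPSC minus ESC was 0.73 ± 0.27 (SE, adjusted p = 0.207, limma) and ViPSC minus ESC 0.53 ± 0.27 (adjusted p = 0.353), and neither passed.

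Jun (1417409_at, chr4:95049036-95052222), the AP-1 partner that JNK phosphorylates, separated the 2 kinds of induced cell without passing the test. Its level was 9.89, 9.81 and 9.69 in ViPSC, 10.63, 10.52 and 10.05 in TiPSC, 9.93, 9.13 and 9.08 in ESC, 11.50 in VM and 10.24 in TTF. Every TiPSC array was above every ViPSC and every ESC array, and VM was above them all. TiPSC minus ESC was 1.02 ± 0.23 (SE, adjusted p = 0.0911, limma) and ViPSC minus TiPSC -0.60 ± 0.23 (adjusted p = 0.168). The dimmer probe set 1448694_at gave ViPSC minus TiPSC as -0.83 and TiPSC arrays of 8.44, 8.27 and 7.65 against 7.33, 7.33 and 7.21 in ViPSC. Both Jun probe sets therefore placed TiPSC above ViPSC on every array, and neither difference passed (adjusted p = 0.180 and 0.0703 over all probe sets).

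Junb (1415899_at, chr8:84976909-84978748), a JUN relative that often restrains JUN's activity, had 1 high array among the induced cells. Its level was 7.67, 7.83 and 7.55 in ViPSC, 7.83, 7.88 and 8.77 in TiPSC, 8.25, 7.81 and 7.43 in ESC, 9.04 in VM and 8.20 in TTF. TiPSC 3 stood above every other pluripotent array, and the TiPSC standard deviation of 0.53 was exceeded by 1.36% of all genes in that group. ViPSC minus TiPSC was -0.48 ± 0.27 (SE, adjusted p = 0.364, limma), and the arrays overlapped in all 3 group pairs. Junb and Ier2 lie on chromosome 8, whose 422 well expressed genes had a median ViPSC minus TiPSC difference of -0.23 and a median TiPSC minus ESC difference of 0.26, against -0.03 and 0.07 over 7212 autosomal genes. The part of this shift in the values of Junb and Ier2 was not tested.

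**Figure D1:**
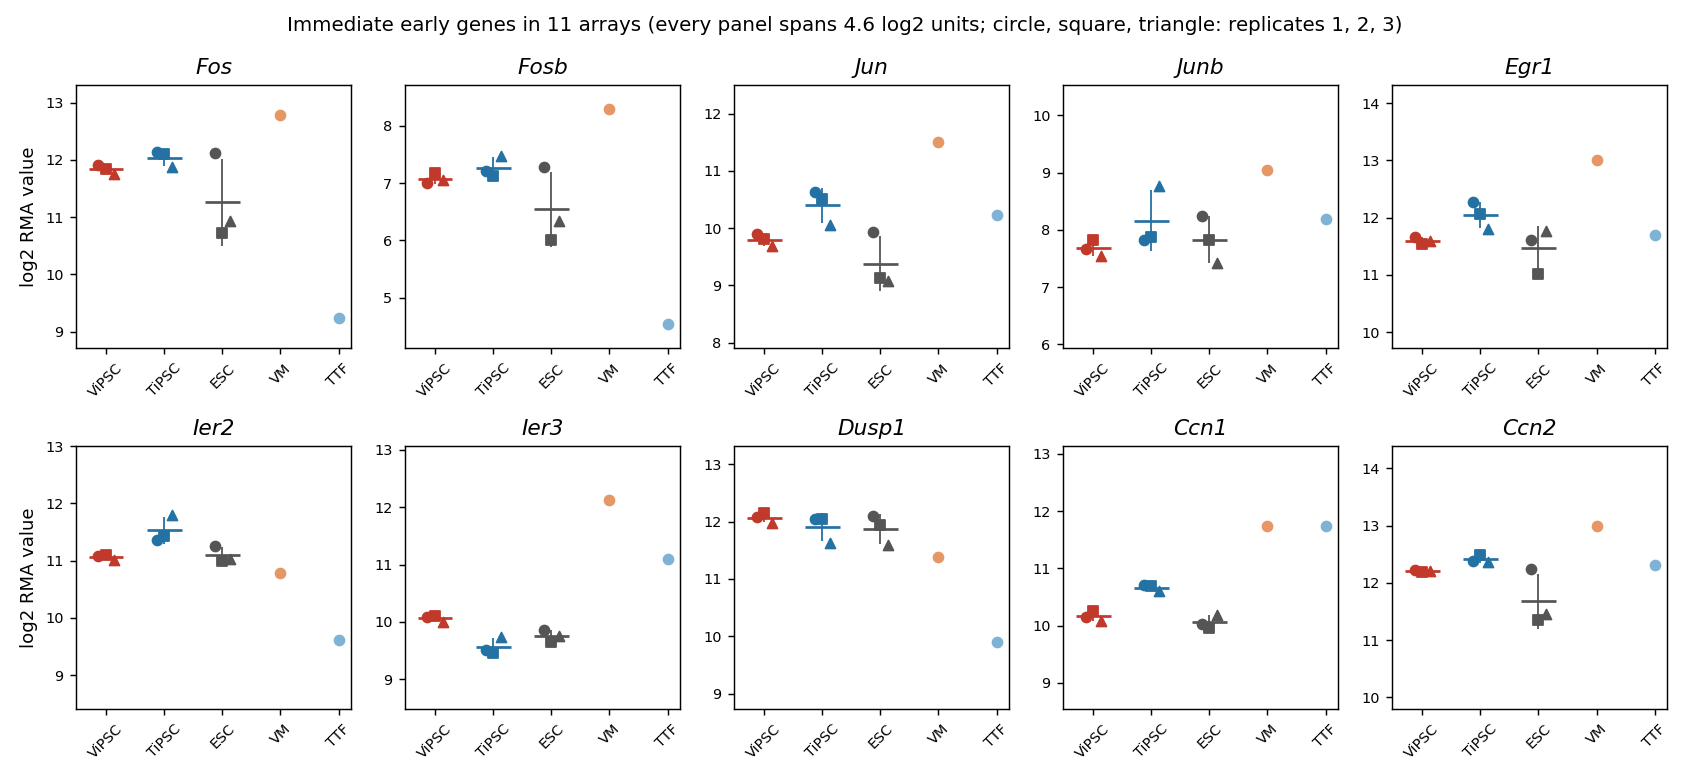
Levels of the 10 immediate early genes (log2 RMA, vertical axes, 1 panel per gene) on each of the 11 arrays, grouped as ViPSC, TiPSC, ESC, VM and TTF, with the mean and SD of the replicated groups. In the Fos, Fosb and Ccn2 panels ESC 1 lies with the induced cells and ESC 2 and ESC 3 lie below them, and in the Ccn1 panel the 3 TiPSC arrays (10.61 to 10.70) lie above all ViPSC and ESC arrays.

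Egr1 (1417065_at, chr18:34861207-34864956) encodes a zinc finger transcription factor that serum and ERK signalling induce through serum response elements. It was at 11.67, 11.54 and 11.59 in ViPSC, 12.27, 12.06 and 11.80 in TiPSC, 11.61, 11.02 and 11.76 in ESC, 13.01 in VM and 11.70 in TTF. All TiPSC arrays were above all ViPSC and ESC arrays, although TiPSC 3 was close to ESC 3, and unlike Fos the low ESC array was ESC 2 alone. TiPSC minus ESC was 0.58 ± 0.19 (SE, adjusted p = 0.168, limma) and ViPSC minus TiPSC -0.44 ± 0.19 (adjusted p = 0.211), so neither passed.

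Ier2 and Ier3 are small early response genes with opposite layouts in the induced cells. Ier2 (1416442_at, chr8:84661331-84662852), a nuclear protein induced by growth factors, was at 11.08, 11.10 and 11.02 in ViPSC, 11.36, 11.43 and 11.79 in TiPSC, 11.26, 10.99 and 11.03 in ESC, 10.79 in VM and 9.62 in TTF. It was highest in TiPSC on every array, and it and Dusp1 were the members whose VM array was below every pluripotent array. ViPSC minus TiPSC was -0.46 ± 0.13 (SE) with an adjusted p of 0.0655 (limma), just above the threshold of 0.05.

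Ier3 (1419647_a_at, chr17:35821713-35822911), which modulates survival and NF-kappaB signalling, was at 10.08, 10.11 and 10.003 in ViPSC, 9.51, 9.45 and 9.73 in TiPSC, 9.86, 9.64 and 9.75 in ESC, 12.13 in VM and 11.10 in TTF. The ViPSC arrays were above all other pluripotent arrays, and both source cells were well above all 9. Ier3 was higher in ViPSC than in TiPSC by 0.50 ± 0.10 (SE, 95% interval 0.28 to 0.72, adjusted p = 0.0219, limma), and ViPSC minus ESC was 0.31 ± 0.10 (adjusted p = 0.140). The Ier3 call against TiPSC was lost when any ViPSC array, TiPSC 1 or TiPSC 2 was left out (adjusted p = 0.0956, 0.100, 0.0718, 0.0889 and 0.0712), and over all alternatives the adjusted p ran from 0.00113 to 0.100 with the difference between 0.44 and 0.58.

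Dusp1 (1448830_at, chr17:26505591-26508472) encodes the nuclear phosphatase that switches off p38, JNK and ERK. It was at 12.08, 12.15 and 11.99 in ViPSC, 12.05, 12.04 and 11.62 in TiPSC, 12.10, 11.94 and 11.59 in ESC, 11.38 in VM and 9.90 in TTF. The 3 pluripotent groups overlapped throughout, and both source arrays lay below all 9 pluripotent arrays. TiPSC minus ESC was 0.03 with a 95% interval from -0.32 to 0.38, and ViPSC minus TiPSC 0.16 with an interval from -0.19 to 0.51 (adjusted p = 0.942 and 0.620, limma). With 3 arrays a group, differences anywhere within these intervals remain compatible with the values.

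CCN1 and CCN2 are secreted matricellular proteins, known targets of serum response factor and of YAP, that bind integrins and shape the matrix around fibroblasts. Ccn1 (1416039_x_at, chr3:145646971-145649985) was at 10.16, 10.25 and 10.09 in ViPSC, 10.70, 10.68 and 10.61 in TiPSC, 10.04, 9.95 and 10.19 in ESC, 11.74 in VM and 11.73 in TTF. TiPSC stood above both other pluripotent groups on every array, ViPSC and ESC overlapped, and the 2 source arrays were nearly equal and above all 9. Ccn1 was lower in ViPSC than in TiPSC by 0.50 ± 0.09 (SE; difference -0.50, 95% interval -0.70 to -0.30, adjusted p = 0.0153, limma) and higher in TiPSC than in ESC by 0.61 ± 0.09 (adjusted p = 0.0264).

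The 4 Ccn1 probe sets disagreed on the first of these. In TiPSC, 1438133_a_at was at 10.31, 10.26 and 10.33 against 9.73, 9.92 and 9.66 in ViPSC, a ViPSC minus TiPSC difference of -0.53 (adjusted p = 0.0501 over all probe sets, limma). The 2 dimmer probe sets went the other way, with 1442340_x_at at 0.31 (adjusted p = 0.600) and 1457823_at at 0.16 (adjusted p = 0.805), and on both the TiPSC 3 array was low, at 6.55 and 6.32. With the mean of all probe sets per gene the Ccn1 difference was -0.14 (adjusted p = 0.598), so this call depended on the choice of probe set. All 4 probe sets placed TiPSC above ESC on average, by 0.61, 0.68, 0.32 and 0.48, with adjusted p of 0.0352, 0.0747, 0.603 and 0.406.

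**Figure D2:**
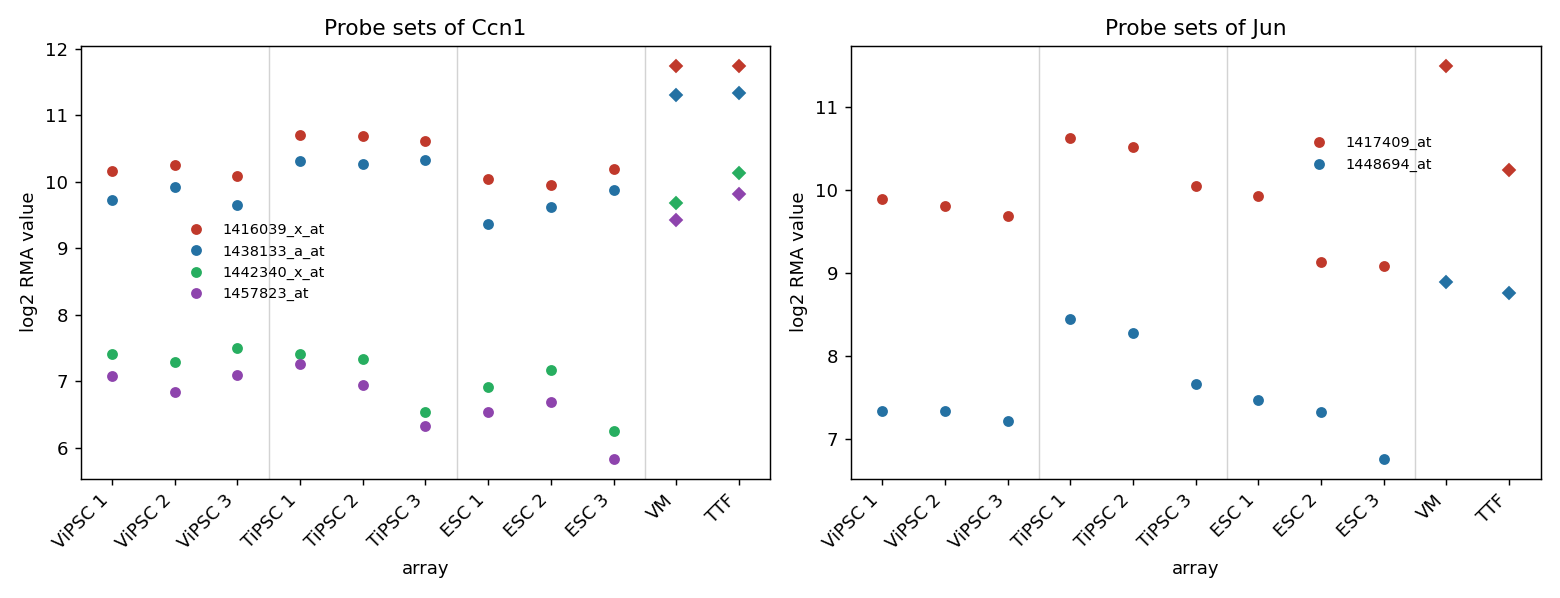
Log2 RMA values of the 4 probe sets of Ccn1 (left) and the 2 of Jun (right) on each of the 11 arrays, 1 point per array with diamonds for VM and TTF. The 2 brighter Ccn1 probe sets show TiPSC above ViPSC, the 2 dimmer ones do not, and both Jun probe sets show TiPSC above ViPSC on every array.

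The Ccn1 call between ViPSC and TiPSC was also lost when any ViPSC array, TiPSC 1 or TiPSC 2 was left out (adjusted p = 0.0736, 0.0516, 0.0756, 0.0694 and 0.0507). Over all its alternatives the adjusted p ran from 0.00128 to 0.598. The Ccn1 call between TiPSC and ESC was lost without any ViPSC array, TiPSC 1, TiPSC 2 or ESC 2 (adjusted p between 0.0639 and 0.135), and ran from 0.00302 to 0.185. Fibroblast and feeder markers, of a cell type in which Ccn1 is abundant, had differences below 0 for ViPSC minus TiPSC in 10 of 12, against 58.2% of all genes. For TiPSC minus ESC they were above 0 in 10 of 12 (43.3% of all genes were below 0). Both counts share the TiPSC arrays. Of these 12 markers, Sparc alone passed in each comparison, higher in ViPSC than in TiPSC by 1.06 and lower in TiPSC than in ESC (-0.78). Smooth muscle markers summed to between 11.39 and 11.89 in TiPSC, between 10.87 and 10.97 in ViPSC and between 10.6 and 11.4 in ESC. The part of feeder or smooth muscle RNA in the Ccn1 values was not tested.

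Ccn2 (1416953_at, chr10:24595442-24598683) followed the layout of Fos. It was at 12.22, 12.19 and 12.21 in ViPSC, 12.38, 12.48 and 12.37 in TiPSC, 12.24, 11.35 and 11.45 in ESC, 12.99 in VM and 12.31 in TTF. TiPSC was above ViPSC and ESC on every array, ESC 1 was just above ViPSC, and ESC 2 and ESC 3 were lower than all other arrays. ViPSC minus TiPSC was -0.20 ± 0.20 (SE, adjusted p = 0.627, limma), ViPSC minus ESC 0.53 ± 0.20 (adjusted p = 0.208) and TiPSC minus ESC 0.73 ± 0.20 (adjusted p = 0.123). The ViPSC arrays agreed to within a standard deviation of 0.01, which 96.3% of all genes exceeded in that group.

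The comparison of ViPSC with TiPSC sets induced cells of different origin beside each other. Origin and differences between lines cannot be told apart, since the number of lines is not given. Of the 10 genes, Ier3 was higher and Ccn1 lower in ViPSC, and the other 8 did not pass. That is 2 of 10, against 5.63% of all 18193 genes called in this comparison (3.20% higher and 2.43% lower in ViPSC), and nothing about the 10 genes as a group is read from so small a count. At an unadjusted p under 0.05, 5 of 10 passed (Ier3 higher, Jun, Egr1, Ier2 and Ccn1 lower in ViPSC), against 21.0% of all genes. Arrays did not overlap for 6 of 10, against 33.5% of all genes. The median difference over the 10 genes was -0.32, against -0.04 over all genes, and 8 of 10 lay below 0, as did 58.2% of all genes. The count was 0 when any ViPSC array, TiPSC 1 or TiPSC 2 was left out (between 207 and 512 of all genes were then called), and 4 without ESC 1, which touches this comparison only through the shared spread. Without ESC 1, 1994 of 18193 genes were called.

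TiPSC, ViPSC and ESC arrays are shared among the 3 comparisons, so the values for ESC are given beside those above and not as separate support. ViPSC against ESC had 0 of 10 called by limma, where 2.14% of all genes were called, and 2 at an unadjusted p under 0.05 (Ier3 and Ccn2, both higher in ViPSC), against 17.2% of all genes. Ier3 was the gene whose arrays did not overlap there, 1 of 10 against 22.2% of all genes. TiPSC against ESC had 1 of 10 called, Ccn1, against 0.632% of all genes (0.291% higher in TiPSC), and 7 at an unadjusted p under 0.05, all higher in TiPSC, against 18.1% of all genes. Arrays of TiPSC and ESC did not overlap for Jun, Egr1, Ier2, Ccn1 and Ccn2, 5 of 10 against 15.8% of all genes. The median difference was 0.25 for ViPSC minus ESC and 0.59 for TiPSC minus ESC, against 0.00 and 0.03 over all genes.

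**Figure D3:**
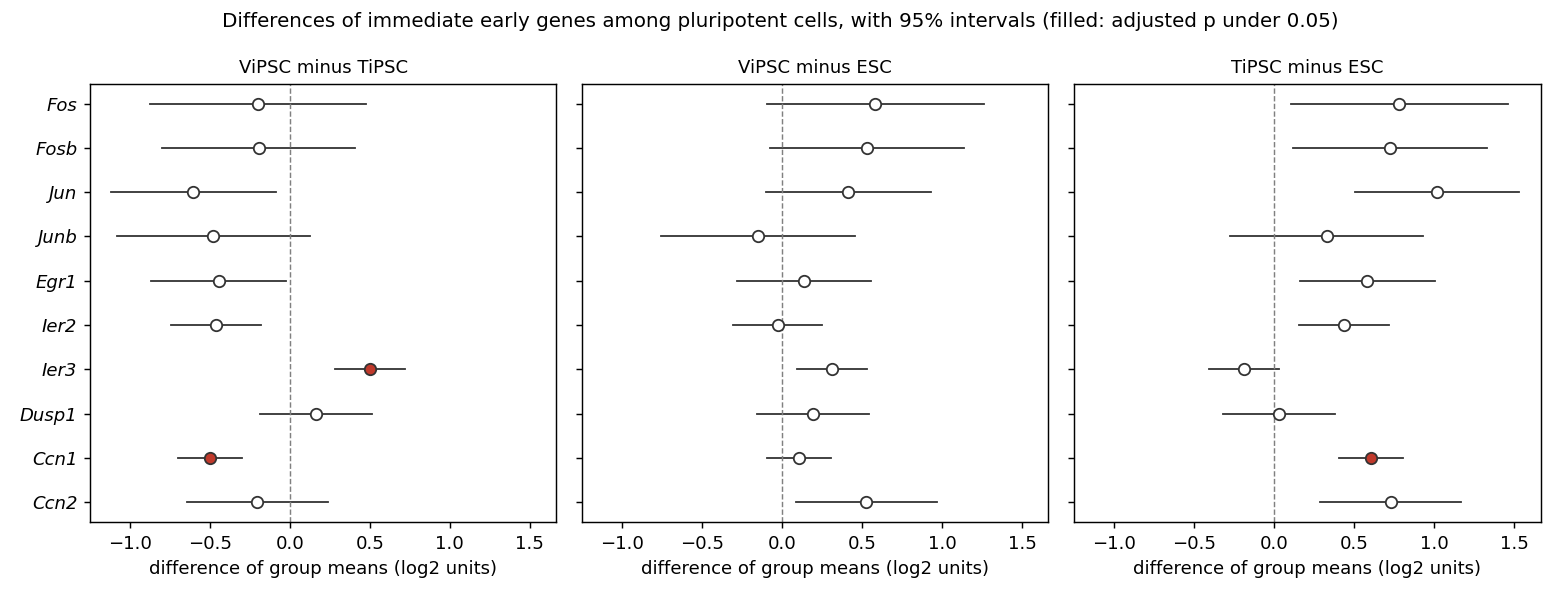
Log2 differences of the 10 genes for ViPSC minus TiPSC, ViPSC minus ESC and TiPSC minus ESC, with 95% intervals from limma and the genes that passed at an adjusted p under 0.05 marked. Ier3 (0.50) and Ccn1 (-0.50) pass for ViPSC minus TiPSC, Ccn1 (0.61) passes for TiPSC minus ESC, and no gene passes for ViPSC minus ESC.

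Several of the 10 genes were widely spread over the ESC arrays. Over the 3 ESC arrays the standard deviation was 0.76 for Fos, 0.66 for Fosb, 0.48 for Ccn2 and 0.48 for Jun, and 2.14%, 3.29%, 7.37% and 7.56% of all genes had a larger one. The median standard deviation of the 10 genes was 0.40 in ESC, 0.21 in TiPSC and 0.08 in ViPSC, against 0.16, 0.12 and 0.08 over all genes. Ier3, Ccn1 and Ier2 were the least spread in ESC, at 0.11, 0.12 and 0.15, each below the median of all genes. Fos and Fosb spanned 1.40 and 1.26 log2 units over the ESC arrays, 2 of 10 genes past a span of 1 against 5.95% of all genes.

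ESC 1 was the array that decided the comparisons with ESC. Without it, 5 of 10 genes were higher in ViPSC than in ESC by limma: Fos by 1.02 (adjusted p = 0.000806), Fosb by 0.90 (0.0032), Jun by 0.69 (0.0215), Ier3 by 0.37 (0.0476) and Ccn2 by 0.80 (0.000618). Against TiPSC, 6 of 10 passed without it, Fos by 1.22, Fosb by 1.09, Jun by 1.29, Ier2 by 0.52, Ccn1 by 0.59 and Ccn2 by 1.01, all higher in TiPSC. The share of all genes called without ESC 1 was also larger, 13.8% for ViPSC against ESC and 16.7% for TiPSC against ESC, in place of 2.14% and 0.632%. Over the alternatives the adjusted p of Fos ran from 0.000806 to 0.707 for ViPSC against ESC and from 0.000364 to 0.489 for TiPSC against ESC. Nothing in the labels sets ESC 1 apart from ESC 2 and ESC 3.

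Centred on each gene's own mean over the 9 pluripotent arrays, the 10 genes averaged 0.12 in ESC 1, -0.49 in ESC 2 and -0.40 in ESC 3. They averaged between 0.23 and 0.26 in TiPSC and between -0.06 and 0.05 in ViPSC. Of the 10, 8 were above their own mean in ESC 1, 0 in ESC 2 and 1, Egr1, in ESC 3. Fos, Fosb, Egr1, Ier2, Ccn1 and Ccn2 had their lowest pluripotent value in ESC 2, Jun, Junb and Dusp1 in ESC 3, and Ier3 in TiPSC 2.

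**Figure D4:**
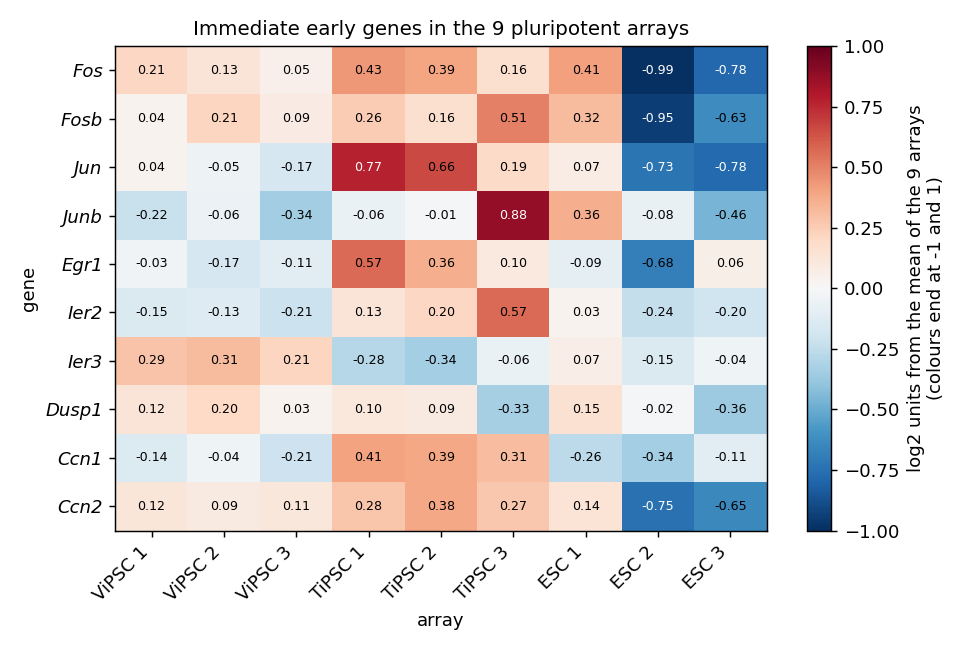
Each gene's log2 value minus its own mean over the 9 pluripotent arrays (colour and printed number), with genes in rows and arrays in columns. The ESC 2 and ESC 3 columns are below 0 for nearly every gene (means -0.49 and -0.40), the ESC 1 column is mostly above 0 (mean 0.12), and Ier3 is the row that is high in ViPSC and low in TiPSC.

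The genes did not all vary together, and the correlations that follow describe 9 arrays that share the low ESC 2 and ESC 3. Against the mean of the other 9 members, Pearson's r was 0.96 for Ccn2, 0.93 for Fosb, 0.93 for Fos and 0.90 for Jun, between 0.65 and 0.69 for Egr1, Ccn1 and Ier2, 0.43 for Junb, 0.25 for Dusp1 and -0.20 for Ier3. Over the 6 induced arrays alone it was 0.97 for Ccn1 and -0.90 for Ier3, and Fos with Fosb, at 0.94 over 9 arrays, was at 0.05. Junb with Ier2, both on chromosome 8, was at 0.85 over 9 arrays and 0.92 over 6. By the rule of highest correlation with the mean of the 10 genes over 9 arrays, Aldh9a1, AI597479, Sort1, Fancf and Ece1 were the most alike (r from 0.99 down to 0.986), followed by Tmed10, Prpf40b, Ptk7, Lamb3 and Prkra (0.98 down to 0.972), and 268 of 9087 genes reached 0.9. None of the 10 most alike belonged to the lists of early response genes, and over all 11 arrays Sort1 was first at 0.97, followed by Cpeb2, Ror1, Bcl6b and Dcaf11.

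The source cells were compared without a test, since VM and TTF have 1 array each, and a difference of at least 2 log2 units was taken as the mark. Fosb and Fos passed it, higher in VM than in TTF by 3.74 and 3.54, which is 2 of 10 against 9.31% of all genes in either direction and 4.68% in this one. The other differences for VM minus TTF were 1.48 for Dusp1, 1.31 for Egr1, 1.26 for Jun, 1.17 for Ier2, 1.03 for Ier3, 0.84 for Junb, 0.69 for Ccn2 and 0.01 for Ccn1. All 10 were above 0, against 47.4% of all genes, and Ccn1 was so by next to nothing. The 2 arrays differ in cell type, in the isolation of the cells and in the endothelial and fibroblast markers given above, and these cannot be told apart.

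Set against its own source, ViPSC lay on average below VM in 8 of the 10 genes (53.7% of all genes were above 0) and TiPSC above TTF in 7 (56.9% of all genes were above 0). For ViPSC minus VM the mean differences were -2.07 for Ier3, -1.70 for Jun, -1.58 for Ccn1, -1.41 for Egr1, -1.36 for Junb, -1.21 for Fosb, -0.94 for Fos, -0.78 for Ccn2, 0.28 for Ier2 and 0.69 for Dusp1. Ier3 was at least 2 log2 units below VM in all 3 ViPSC arrays, 1 of 10 against 13.2% of all genes in either direction and 6.76% in this one. For TiPSC minus TTF they were 2.80 for Fos, 2.72 for Fosb, 2.01 for Dusp1, 1.91 for Ier2, 0.34 for Egr1, 0.16 for Jun, 0.11 for Ccn2, -0.04 for Junb, -1.07 for Ccn1 and -1.54 for Ier3. Fos and Fosb passed 2 log2 units in every TiPSC array, 2 of 10 against 10.5% of all genes in either direction and 4.51% in this one, and Dusp1 did not on TiPSC 3, where it was 1.72 above TTF. All 6 induced arrays lay between the TTF and VM arrays for Fos and Fosb, and all 3 TiPSC arrays did so for Egr1 and Ccn2. Trypsin and plating before RNA are given for the pluripotent cells alone, so harvest and reprogramming cannot be told apart in these differences.

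**Figure D5:**
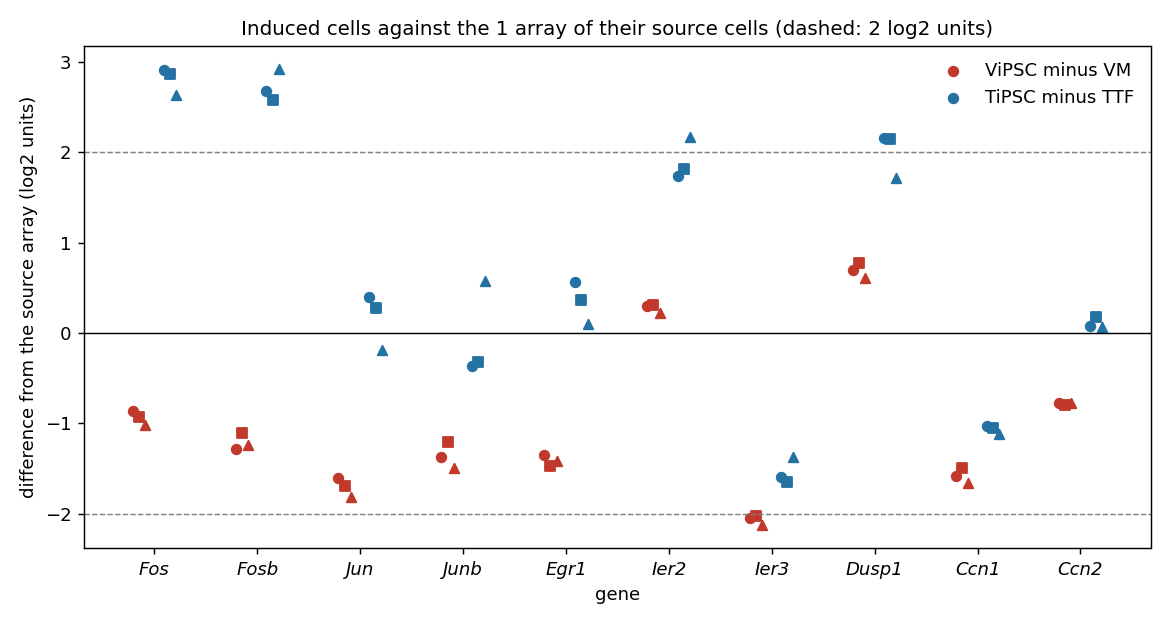
Log2 differences, without a test, of each ViPSC array from the VM array (red) and each TiPSC array from the TTF array (blue), by gene, with circle, square and triangle for replicates 1, 2 and 3 and dashed lines at 2 log2 units. Fos and Fosb lie below VM in every ViPSC array (means -0.94 and -1.21) and more than 2 above TTF in every TiPSC array (means 2.80 and 2.72).

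Among 54 other genes of the early response, 7 passed for ViPSC against TiPSC, where 5.63% of all genes passed. Higher in ViPSC were Irf1, an interferon-induced transcription factor, by 1.48 ± 0.13 (SE, adjusted p = 0.000879, limma), the stress kinase Plk3 by 1.06 ± 0.16, Csrnp1 by 0.55 ± 0.13, the small GTPase Rhob by 0.52 ± 0.10 and the TGF-beta-induced factor Klf10 by 0.45 ± 0.10. Lower in ViPSC were Plk2 (-0.70 ± 0.15) and the Notch target Hes1 (-0.64 ± 0.11). Irf1 lies on chromosome 11, whose 644 well expressed genes had a median difference of 0.44 in this comparison. The list's median was -0.02 against -0.04 over all genes. Its count was 2, 1 and 2 without ViPSC 1, 2 and 3, 2 without TiPSC 1, 4 without TiPSC 2 and 11 without ESC 1.

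Against ESC, Irf1 was higher in ViPSC (0.77 ± 0.13, adjusted p = 0.0243, limma) and Pim1, a kinase gene downstream of LIF and STAT3, was lower (-0.57 ± 0.12, adjusted p = 0.0474), 2 of 54 against 2.14% of all genes. That count was 0 without any ViPSC array, TiPSC 1 or ESC 2, 1 without TiPSC 2 or ESC 3, and 15 without ESC 1, where 13.8% of all genes passed. For TiPSC against ESC 0 of 54 passed, against 0.632% of all genes. At an unadjusted p under 0.05 there were 13 of 54, 9 higher and 4 lower in TiPSC, against 18.1% of all genes. Without ESC 1, 18 of 54 passed, against 16.7% of all genes. In VM the list was higher than in TTF by at least 2 log2 units for 12 of 54 and lower for 1, against 4.68% and 4.62% of all genes, with a median difference of 0.98 against -0.02. The stress-induced factor Atf3 led it, at 12.09 in VM and 5.46 in TTF, followed by the NF-kappaB feedback genes Tnfaip3 (3.52 higher) and Nfkbia (3.05 higher) and the mRNA decay factor Zfp36 (2.79 higher).

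The genes that act before and after the early response were also looked at. Of 21 measured upstream genes, which encode receptors, kinases and the factors SRF, ELK and CREB, 0 passed in any of the 3 comparisons by limma (at an unadjusted p under 0.05, 4 between the induced groups, 4 between ViPSC and ESC, and 6 between TiPSC and ESC). Of 14 ERK feedback genes, 0 passed in each (1, 2 and 2 unadjusted, in the same order). Of all genes, 5.63%, 2.14% and 0.632% passed in that order, and 21.0%, 17.2% and 18.1% had an unadjusted p under 0.05. Between the source cells the largest upstream differences, as VM minus TTF, were those of the growth factor receptor genes Pdgfra (-3.84), Pdgfrb (-2.17) and Fgfr1 (-1.97) and of the JNK gene Mapk8 (1.46). Among the feedback genes they were those of the phosphatases Dusp2 (3.27) and Dusp10 (2.81), the ETS factor Etv5 (-3.08) and Phlda1 (2.69).

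The other CCN genes and targets of YAP and MRTF, 25 measured, held 2 that passed for ViPSC against TiPSC, the YAP partner Tead2 (-0.70 ± 0.16, adjusted p = 0.0346, limma) and Ajuba (-0.45 ± 0.11, adjusted p = 0.049), both lower in ViPSC. That is 2 of 25, against 5.63% of all genes. The list's median was -0.37 and 21 of 25 lay below 0, against 58.2% of all genes. For TiPSC against ESC, Myl9, a smooth muscle light chain, was higher in TiPSC by 1.21 ± 0.20 (adjusted p = 0.0396), 1 of 25 against 0.632% of all genes, with a median of 0.30. For ViPSC against ESC 0 of 25 passed by limma, with 3 at an unadjusted p under 0.05, against 17.2% of all genes. Between the source cells the largest differences of the list were those of Edn1, which encodes the vasoconstrictor endothelin 1, 5.09 higher in VM, and, for VM minus TTF, of Ccn5 (-4.90), the smooth muscle gene Tagln (-4.48) and the tissue factor gene F3 (-4.48). This list shares Acta2, Cnn1 and Tagln with the smooth muscle markers given above.

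Of 16 measured heat shock and dissociation genes, Chac1 (-1.84) and Hspa1a (-0.90) were lower in ViPSC than in TiPSC, 2 of 16 against 5.63% of all genes, and 0 passed against ESC in either kind of induced cell by limma (3 and 6 at an unadjusted p under 0.05, against 17.2% and 18.1% of all genes). In VM the inducible chaperones Hspa1a, Hspa1b and Hspb1 and the co-chaperone Dnajb4 were 6.22, 3.57, 3.31 and 2.21 higher than in TTF, beside the higher Fos, Fosb and Atf3 of the same array. Of the 16, 4 were higher in VM by at least 2 log2 units and 0 lower, against 4.68% and 4.62% of all genes. Differences were above 0 for 11 and below 0 for 5, among them Trib3 (-1.66) and Ddit4 (-1.12). The list's median was 0.65, against -0.02 over all genes. The part of cell isolation in those VM values was not tested.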

How the data were processed

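The authors deposited log2 values from RMA, per the submitters' processing notes, a method that also puts arrays on 1 scale; its version and probe annotation are not given in the sources used here. RMA compresses differences near background, no detection calls were used, and the authors' values were used as deposited. The 64 control probe sets, 932 with several symbols and 9160 without one were left out. Each of 18193 genes took its brightest probe set (mean of 11 arrays). ViPSC, TiPSC and ESC were compared with limma 3.58.1 in R 4.3.3 (1 mean per group, spread shared by 9 arrays, eBayes, two-sided), Benjamini-Hochberg over all genes, passing at 0.05; a pass at an unadjusted p under 0.05 is stated as such. VM and TTF have 1 array each and no test. Well expressed means a mean of at least 7.

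The named genes were all 10 members with every probe set, the genes of each other list that passed, the 4 of each list with the largest difference between VM and TTF, and those most alike to the members. Members, lists and tests were chosen with earlier results of these data known, among them those of Ier3, Ccn1, Irf1, Chac1 and Hspa1a. The fit was tested on simulated data. Alternatives were the 2 groups alone, a replicate block, other probe set rules, a filter on low genes, quantile normalization, array weights, chromosomes left out and each array left out. Arrays are few, which limits precision. Promoters are RefSeq sequences.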

Additional observations from a re-analysis of the deposited data

Results flagged for a closer look

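For 4 of the 10 genes every ViPSC array lay below the VM array and every TiPSC array lay above the TTF array, so that induced and source cells differed in opposite directions in the 2 origins. The mean differences from the source were -0.94 and 2.8 log2 units for Fos, -1.21 and 2.72 for Fosb, -1.41 and 0.34 for Egr1, and -0.78 and 0.11 for Ccn2, each given as ViPSC minus VM and TiPSC minus TTF. The same layout held for 9.36% of all genes, and the reverse for 8.6%. For Fos and Fosb every induced array lay between TTF and VM, so the opposite signs follow from the gap between those 2 arrays. The difference between the origins was not tested, since each source cell has 1 array, and the Ccn2 difference in TiPSC was as small as 0.07 on 1 array. Harvest and reprogramming cannot be told apart here either.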

How the results depend on the processing

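Of 534 recomputed values of the 30 differences between pluripotent groups, 474 kept their direction and their side of the threshold, 21 lost a call, 31 gained one and 8 changed sign, and 26 of the 30 differences kept their direction throughout. The 8 were small: ViPSC minus ESC became 0.060 for Junb and 0.056 for Ier2 without ESC 1, 0.038 for Ier2 with array weights and -0.084 for Egr1 without ESC 2. TiPSC minus ESC of Dusp1 became -0.0046 with quantile normalization, -0.043 without TiPSC 1, -0.038 without TiPSC 2 and -0.11 without ESC 3. With 1 array left out these 4 differences ran from -0.35 to 0.060 (Junb), -0.079 to 0.056 (Ier2), -0.084 to 0.29 (Egr1) and -0.11 to 0.17 (Dusp1). The cause was not tested.

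For ViPSC against TiPSC, 2 members and 1024 of all 18193 genes were called. These counts were 5 and 2621 with only the 2 groups, 1 and 904 with the mean of all probe sets, 5 and 3613 with array weights, and 0 to 4 and 207 to 1994 with 1 array left out. The other early genes gave 7 calls, 12 with only the 2 groups, 11 with every probe set tested, 17 with array weights and between 1 and 11 with 1 array left out. For ViPSC against ESC, 0 members and 390 of all genes were called, 5 and 3453 with array weights and 0 to 5 and 22 to 2519 with 1 array left out. The other early genes gave 2, 0 with only the 2 groups (73 of all genes), 13 with array weights, 0 with chromosomes 8, 11, X and Y left out, and between 0 and 15. For TiPSC against ESC, 1 member and 115 of all genes were called, 0 and 1 with only the 2 groups, 0 and 65 with the mean of all probe sets, 7 and 2913 with array weights and 0 to 6 and 12 to 3038 with 1 array left out. The other early genes gave 0, 1 without low genes, 1 with quantile normalization, 15 with array weights and between 0 and 18. The array weights were 0.26 for ESC 1, 0.40 for ESC 3 and 0.44 for TiPSC 3. The other arrays, with ESC 2 at 1.79, had weights between 1.06 and 2.03.

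The replicate numbers do not pair the arrays: deviations of same-numbered arrays correlated between -0.13 and 0.12, and 2 of 9 arrays had their best match elsewhere in an array of their own number. The replicate block gave 1 member for ViPSC against TiPSC, 0 for ViPSC against ESC and 0 for TiPSC against ESC, where 623, 103 and 9 of all genes were called, and 4 and 1 other early genes in the first and second of these. At a mark of 1 log2 unit, 7 members differed for VM against TTF, 6 for ViPSC against VM and 6 for TiPSC against TTF, in place of 2, 1 and 2, and 24.3%, 30.5% and 26.4% of all genes did so; with 1 array left out the last was between 2 and 3.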

Other observations

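Beyond the genes named by the fixed rule, Dusp6 was looked up after its values were seen, since with Etv5 it is a common readout of ERK activity. Dusp6 was at 10.62 in ESC 1, 9.51 in ESC 2 and 9.12 in ESC 3, and between 10.33 and 10.57 on the 6 induced arrays. Etv5 was at 11.62, 10.43 and 10.17 in ESC and between 11.47 and 11.73 on the induced arrays. Both had ESC 1 level with or just above the induced cells and ESC 2 and ESC 3 below them, as did Fos, Fosb and Ccn2, while Pim1 did not (10.47, 10.9 and 10.72 in ESC, 10.03 to 10.61 on the induced arrays). Spry1 of the same list of 14 shared this layout, at 8.86, 7.64 and 7.31 in ESC and between 7.95 and 8.73 on the induced arrays. Several other genes of that list did not. Spry4 was at 8.55, 8.71 and 8.26 in ESC and between 7.79 and 8.3 on the induced arrays. Etv4 was at 8.68, 7.87 and 7.67 and between 7.2 and 8.27, and Dusp7 at 7.0, 7.09 and 6.19 and between 6.1 and 6.99. The share of all genes with the layout of Dusp6 was not counted. Over all genes, too, ESC 1 was closer to the induced arrays than to ESC 2 and ESC 3. A part of ERK signalling in these values was not tested.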
